A study of Homo sapiens with 6 samples.

Results

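Interferon-stimulated genes are the genes that cells switch on when interferon reaches them. The set described here holds 46 of them, chosen by gene symbol from a table of 23710 genes, and all 46 were in the table. RNA was sequenced from THP-1, a human monocytic leukaemia cell line, after 6 h with 10 uM mebendazole, an anthelmintic drug that binds tubulin, or after 6 h with its vehicle DMSO. Each group had 3 libraries, labelled as sample pairs 1 to 3, and all cells grew in the same medium with serum. No addition of interferon is named for either group. Whether a pair stands for a culture or a day of its own is not stated, and p-values therefore cover only the scatter of these libraries, which may be technical.

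Type I interferons bind the receptor IFNAR1 and IFNAR2, and the kinases JAK1 and TYK2 then activate transcription factors that bind a promoter sequence called the interferon-stimulated response element (ISRE). Interferon gamma acts through IFNGR1 and IFNGR2 and on another promoter element, GAS. The induced proteins sense foreign RNA, degrade it, block virus entry and release, or attach the ubiquitin-like protein ISG15 to other proteins. In monocytes many of these genes are transcribed at a low level without added interferon.

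Library totals ranged from 13420558 to 15727667 reads. The 10 monocyte markers (CD14, LYZ, CD33, CSF1R, FCGR1A, CD68, ITGAM, SPI1, CEBPA and PTPRC) were all detected, 3 were called higher and 7 lower with mebendazole, and their summed level was 2459 to 2590 CPM in DMSO and 2629 to 2705 CPM with mebendazole. On library totals, without the TMM factors, that order turned, with 2703 to 2803 CPM in DMSO and 2439 to 2467 CPM with mebendazole. CPM is the read count scaled to the library's total, adjusted by edgeR's TMM factor. Of the genes that define T cells, 5 reads of CD3D, 1 of CD3E and 2 of CD3G were found over the 3 DMSO libraries, against 0 over the mebendazole libraries. CLEC4C, a defining marker of plasmacytoid dendritic cells, the main producers of interferon in blood, had 0 reads in every library, although the summed level of the 7 markers on that list was 30.6 to 32.9 CPM in DMSO and 47.1 to 48.5 CPM with mebendazole, mostly from IL3RA, TCF4 and TLR9. Of 10 T, B and NK cell markers 3 were tested, and all 3 (NCAM1, NKG7 and GNLY) were called higher. GNLY, with 20 reads in DMSO against 104 with mebendazole, entered the test only through the mebendazole libraries, in which it was high. The summed level of that list was 15.8 to 18.3 CPM in DMSO and 32.9 to 35.0 CPM with mebendazole. Of 10 epithelial, stromal and endothelial markers 5 were tested, with 2 called higher and 1 lower, and their summed level, mostly that of PECAM1, was 94.5 to 104 CPM in DMSO and 128 to 150 CPM with mebendazole. In the last list PDGFRB, called lower, entered the test only through its DMSO level. These counts of calls stand beside 40.6% of all genes tested called higher, 41.7% lower and 82.3% in either direction. The part that any of these marker lists has in the results was not tested.

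With mebendazole the interferon-stimulated genes split, and more of them were lower than higher. The exonuclease gene ISG20 rose 31.3-fold, the guanylate-binding protein genes GBP5 and GBP2 rose 4.44-fold and 2.15-fold, and MX2 and DDX60 rose 3.04-fold and 2.50-fold. The nuclear antigen gene MNDA fell 46.9-fold, RSAD2, which encodes the antiviral enzyme viperin, fell 6.23-fold, and IFI35, CMPK2 and IFI16 fell 4.65-fold, 4.61-fold and 3.98-fold. ISG15 itself rose 1.73-fold, while the genes of its ligase HERC5 and its protease USP18 fell 3.81-fold and 3.61-fold.

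The filter on low counts, about 10 reads per library or 0.711 CPM, passed 44 of the 46 genes, and GBP1 and IFI27 were not tested. USP18, HERC5, TRIM22 and IFI44L were over the filter in all 3 DMSO libraries but not in all 3 mebendazole libraries, so these 4 entered the test only through the group in which they were high. Of the 44, 9 were called higher and 26 lower at an adjusted p under 0.05 (edgeR's quasi-likelihood test with the pair as a term, Benjamini-Hochberg over 13591 genes), and 9 were not called. Calls were common across the table, with 82.3% of all genes tested called in either direction, 40.6% higher and 41.7% lower, so the 79.5% of the 44 genes that were called lay near the background. By direction, 20.5% of the 44 were called higher and 59.1% lower. In 9 genes every mebendazole library was above every DMSO library (40.5% of all genes tested), and in 27 every one was below (41.9% of all genes). Called and at least 2-fold higher were 6 of the 44 (13.6%, against 15.5% of all genes), and called and at least 2-fold lower 16 (36.4%, against 14.8%). The median log2 fold change was -0.55, against -0.03 over all genes tested. Without the 4 genes that entered through DMSO alone, 22 of 40 (55.0%) were called lower, and 12 of the 40 (30%) at least 2-fold. Of the same 40, 9 (22.5%) were called higher, and the median was -0.51. The genes were listed with earlier results of these data known, so the shares are a description and carry no test.

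**Figure D1:**
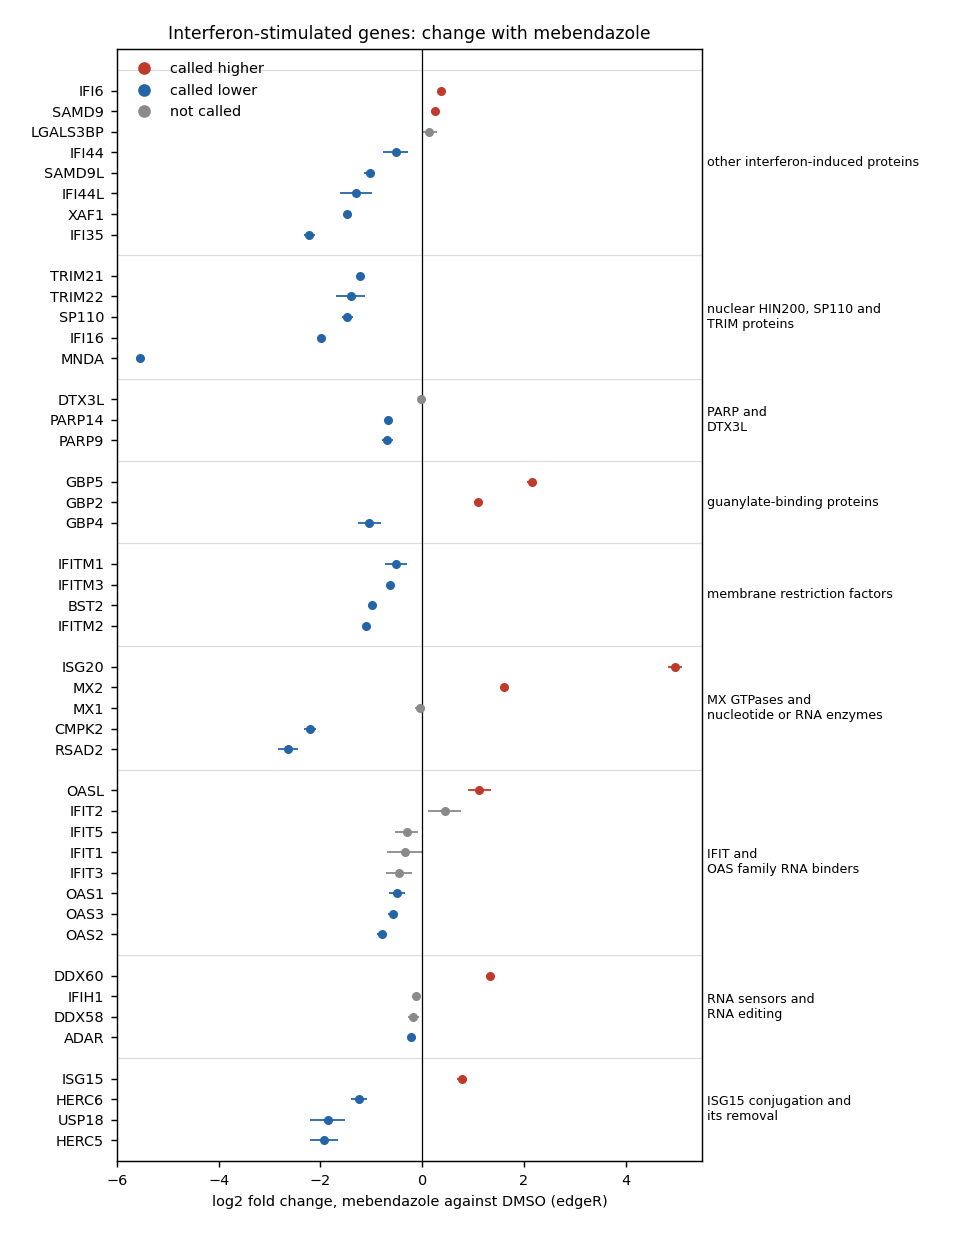
Each point is the log2 fold change of one interferon-stimulated gene (mebendazole against DMSO, 3 libraries per group, edgeR), grouped by the role of its protein, and the bar is 1 SE on either side. Of the 44 points, 9 are called higher and 26 lower, with ISG20 at 4.97 and MNDA at -5.55 as the extremes.

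Summed over the 46 genes, the level was 1347 to 1367 CPM in the DMSO libraries and 1019 to 1047 CPM in the mebendazole libraries, with no overlap. Highly expressed genes weigh most in this sum, and 9 genes of the set were called higher. ADAR had a mean of 461 CPM in DMSO and 394 CPM with mebendazole, and MNDA 129 and 2.73 CPM. Per kilobase of transcript, which allows genes to be compared, the highest levels in DMSO were those of BST2 (95.2 ± 5.03 CPM per kb, mean ± SD, n = 3), MNDA (73.5 ± 3.89) and ADAR (69.2 ± 1.25), followed by IFITM3 (58.1 ± 3.88), IFITM2 (50.1 ± 1.86) and IFI6 (43.3 ± 2.72). MNDA and ADAR differed by less than the sum of their SDs. With mebendazole the order of levels per kb was ADAR (59.2 ± 1.63), IFI6 (55.8 ± 4.59), BST2 (47.9 ± 2.63) and IFITM3 (37.3 ± 2.41), and the first 2 differed by less than the sum of their SDs. MNDA moved from place 2 of 46 to place 29, and ISG20 from place 41, at 0.502 ± 0.0596 CPM per kb, to place 9, at 15.9 ± 0.372. The classical virus-induced genes IFIT1 (0.551 ± 0.243 CPM per kb), IFIT2 (0.250 ± 0.0604) and IFI44L (0.297 ± 0.0274) were among the lowest in DMSO.

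**Figure D2:**
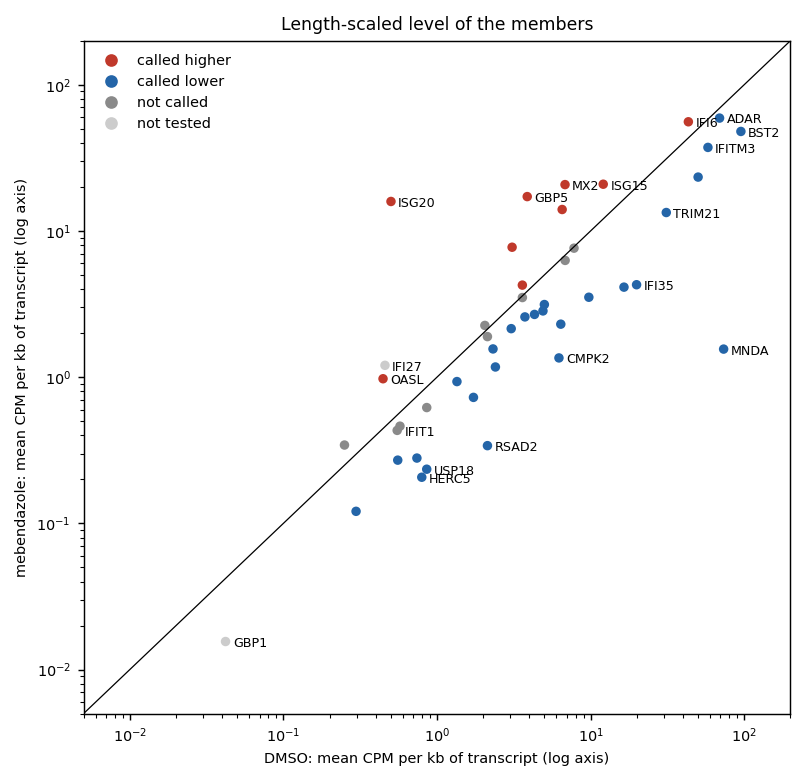
Each point is one of the 46 interferon-stimulated genes, with its mean level in DMSO on the x axis and with mebendazole on the y axis, in CPM per kb of transcript on log axes, and the line marks equal levels. ISG20 lies farthest above the line and MNDA farthest below it, while BST2, ADAR, IFI6 and IFITM3 stay at the upper right.

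Promoter sequences are shown for examples that each hold a match to the ISRE core, 3 that rose (ISG20, ISG15 and DDX60) and 3 that fell (MNDA, RSAD2 and HERC5). These examples do not show how often the core goes with either direction, and counts by direction follow below. The 130 bases before each gene's start are from RefSeq (GRCh38.p14), 5′ to 3′ on the gene's strand, with capitals on every match to the ISRE core GAAANNGAA on either strand. The windows are chr15:88638886-88639015 (+ strand) for ISG20, chr1:1013367-1013496 (+) for ISG15, chr4:168318753-168318882 (- strand) for DDX60, chr1:158831221-158831350 (+) for MNDA, chr2:6865755-6865884 (+) for RSAD2 and chr4:88456989-88457118 (+) for HERC5.
ISG20: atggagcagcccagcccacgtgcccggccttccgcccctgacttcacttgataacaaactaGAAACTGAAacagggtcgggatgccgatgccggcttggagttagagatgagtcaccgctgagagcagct
ISG15: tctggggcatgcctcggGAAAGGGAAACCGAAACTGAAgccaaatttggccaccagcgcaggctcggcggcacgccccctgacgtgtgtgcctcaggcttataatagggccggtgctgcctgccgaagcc
DDX60: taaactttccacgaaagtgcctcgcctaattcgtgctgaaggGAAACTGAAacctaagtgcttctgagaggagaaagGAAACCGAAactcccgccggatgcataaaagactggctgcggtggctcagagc
MNDA: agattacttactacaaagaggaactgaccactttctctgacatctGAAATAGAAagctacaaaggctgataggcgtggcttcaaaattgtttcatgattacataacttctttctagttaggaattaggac
RSAD2: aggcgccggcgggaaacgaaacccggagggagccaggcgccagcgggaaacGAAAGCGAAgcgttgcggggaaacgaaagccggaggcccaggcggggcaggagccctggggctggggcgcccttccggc
HERC5: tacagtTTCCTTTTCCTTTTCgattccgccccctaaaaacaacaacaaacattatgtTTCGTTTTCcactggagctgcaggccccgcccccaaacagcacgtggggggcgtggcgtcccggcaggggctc

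ISG15 holds 3 overlapping matches in tandem, HERC5 holds 3 on the opposite strand, of which 2 overlap, DDX60 holds 2 separate ones, and ISG20, MNDA and RSAD2 hold 1 each. Of the 46 genes, 37 were matched in the RefSeq table, DDX58 under its newer symbol, and in the 250 bases before the start 22 of the 37 (59.5%) held the ISRE core, against 7.06% of 27305 promoters of that length. The GAS core TTCNNNGAA was held by 7 of 37 (18.9%), against 6.78% of all. Both motifs were searched on both strands, and a match to one can overlap a match to the other. By direction, the ISRE core was in 5 of 5 matched promoters of genes called higher, 10 of 22 of genes called lower and 5 of 8 of genes not called, and in both genes that were not tested. Of the 9 genes called higher, OASL, MX2, GBP2 and GBP5 had no matched promoter. Of the 26 called lower, USP18, OAS2, IFITM2 and TRIM22 had none. A larger part of the genes called higher is therefore missing, and a difference by direction was not tested. A match is a description of letters, not a site of binding, and the window leaves out elements farther away or after the start.

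In the ISG15 system, which tags other proteins with ISG15, ISG15 itself was called higher. HERC5, USP18 and HERC6 were called lower, beside 41.7% of all genes. Of these, HERC5 and USP18 entered the test only through their DMSO level. ISG15 lay at 9.07, 8.07 and 8.64 CPM in the DMSO libraries of pairs 1 to 3 and at 14.3, 14.8 and 15.4 CPM with mebendazole, and the groups did not overlap (log2 fold change 0.79, SE 0.10, adjusted p = 1.75e-10, edgeR). HERC5, USP18 and HERC6 were lower in every mebendazole library than in any DMSO library, as were 41.9% of all genes tested. HERC6, a ligase related to HERC5, lay at 6.31, 6.58 and 6.70 CPM in DMSO and at 3.05, 2.84 and 2.36 CPM with mebendazole (log2 fold change -1.24, SE 0.16, adjusted p = 2.32e-10, edgeR). HERC5, the main ISG15 ligase in human cells, gave 132 reads over the DMSO libraries against 29 over the mebendazole libraries (log2 fold change -1.93, SE 0.27). USP18, which removes ISG15 from proteins and also dampens signalling at IFNAR2, had 86 against 20 reads (-1.85, SE 0.34).

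Among the 4 genes for RNA sensing and editing, DDX60 was called higher, ADAR was called lower, and DDX58 and IFIH1 were not called. DDX58, which encodes the RNA sensor RIG-I, lay at 9.14, 8.41 and 10.3 CPM in DMSO and at 8.36, 8.82 and 7.55 CPM with mebendazole (log2 fold change -0.17, SE 0.12, adjusted p = 0.163, edgeR). IFIH1, the sensor MDA5, was not called either, although its 22.1 to 23.4 CPM with mebendazole lay below the 23.8 to 25.2 CPM of DMSO (-0.12, SE 0.07, adjusted p = 0.118, edgeR). Scaled by library totals, both were called lower (-0.42 and -0.36), a scaling that shifts the median gene by -0.24. DDX60, a helicase linked to RIG-I signalling, rose from 18.4, 18.4 and 19.4 CPM to 44.6, 51.5 and 44.8 CPM, with no overlap (1.32, SE 0.07, adjusted p = 5.58e-28, edgeR). Its neighbour and close relative DDX60L, which is not among the 46, rose from 132, 146 and 137 CPM to 557, 604 and 569 CPM, and reads may be split between the pair. ADAR, the enzyme that edits adenosine in double-stranded RNA, lay at 463, 468 and 452 CPM in DMSO and at 382, 401 and 400 CPM with mebendazole, a small fall with no overlap (-0.23, SE 0.03, adjusted p = 4.27e-09, edgeR).

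The IFIT genes, whose proteins bind viral RNA, gave 0 calls in 4 by edgeR with TMM factors and by DESeq2, and 0 at an unadjusted p under 0.05 in that edgeR test. They rested on few reads, from 44 (IFIT2) to 108 (IFIT5) in the 3 DMSO libraries and from 33 (IFIT1) to 74 (IFIT5) with mebendazole, and their log2 fold changes ran from -0.45 (IFIT3) to 0.44 (IFIT2). Changes of that size were not detectable at this depth, with SEs of 0.23 to 0.34. IFIT2 was called higher without pair 3 (0.91, adjusted p = 0.0321, edgeR) and IFIT3 lower without pair 1 (-0.78, adjusted p = 0.0139), and with library totals IFIT3 (-0.69, adjusted p = 0.00974) and IFIT5 (-0.55, adjusted p = 0.0248) were both called lower. The OAS enzymes make the oligoadenylate that activates RNase L, and OAS1, OAS2 and OAS3 were lower while OASL, a relative without that activity, was higher. OAS2 fell from 18.9, 15.6 and 18.6 CPM to 11.9, 10.0 and 8.81 CPM (-0.79, SE 0.10, adjusted p = 3.48e-11, edgeR), and OAS3 from 17.2, 13.9 and 15.6 CPM to 8.93, 12.0 and 10.5 CPM (-0.58, SE 0.10, adjusted p = 7.09e-07). No library of one group reached the other in either gene. OAS1 was called lower at -0.50 (adjusted p = 0.00319) but not by DESeq2 (adjusted p = 0.114). OASL had 69 reads in DMSO and 127 with mebendazole (1.12, SE 0.22, adjusted p = 7.25e-06, edgeR).

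The 2 MX GTPases, which trap viral nucleoproteins or capsids, differed from each other. MX2 rose from 20.7, 20.0 and 21.5 CPM to 64.3, 60.4 and 64.8 CPM (log2 fold change 1.61, SE 0.06, adjusted p = 7.12e-35, edgeR). MX1 lay at 14.5, 11.1 and 11.8 CPM in DMSO and at 11.5, 13.3 and 11.7 CPM with mebendazole, and the groups overlapped (-0.04, SE 0.10, adjusted p = 0.710). With library totals MX1 was called lower (-0.29, adjusted p = 0.00864).

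ISG20, an exonuclease that degrades single-stranded RNA, showed the largest rise of the 44 tested genes. It lay at 0.854, 0.881 and 1.06 CPM in DMSO, which is 13, 13 and 18 reads, and at 28.8, 29.5 and 30.2 CPM with mebendazole, 407, 385 and 384 reads. The groups were far apart (4.97, SE 0.14, adjusted p = 1.61e-42, edgeR). RSAD2 and CMPK2, neighbouring genes for viperin and for a mitochondrial nucleotide kinase, both fell. By the RefSeq starts used here the genes overlap on opposite strands, and the library kit does not mark strand. The annotation behind the counts is not given, so whether the counts of these genes share reads is not known. By the same starts, the RSAD2 promoter window shown above lies within CMPK2, and other starts of RSAD2 were not examined. RSAD2 fell from 8.61, 6.71 and 7.17 CPM to 1.35, 1.46 and 0.787 CPM (-2.64, SE 0.19, adjusted p = 5.5e-20, edgeR), and CMPK2 from 18.5, 17.7 and 17.7 CPM to 3.26, 4.76 and 3.70 CPM (-2.21, SE 0.12, adjusted p = 3.03e-26).

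**Figure D3:**
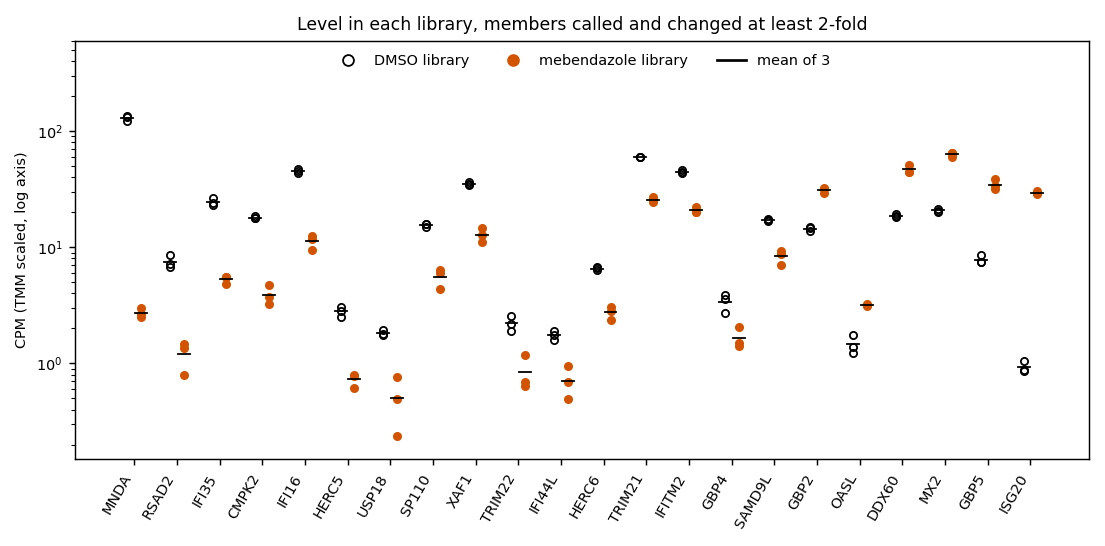
Points show the level of each library in CPM on a log axis for the 22 interferon-stimulated genes called and changed at least 2-fold, DMSO as open and mebendazole as filled circles, with a bar at each mean of 3. In all 22 the mebendazole libraries lie on one side of the DMSO libraries, 16 below and 6 above. The genes were selected for their change, so this separation largely follows from the choice. USP18, HERC5, TRIM22 and IFI44L entered the test only through their DMSO level. Of all genes tested, 41.9% lay wholly below and 40.5% wholly above.

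All 4 genes for membrane proteins that block virus entry or release were called lower, beside 41.7% of all genes. BST2, also named tetherin, which holds budding virus at the cell surface, fell from 96.4, 92.3 and 102 CPM to 47.3, 47.3 and 51.9 CPM (log2 fold change -0.99, SE 0.05, adjusted p = 1.45e-28, edgeR). IFITM2, which hinders virus fusion in endosomes, fell from 44.0, 43.5 and 46.6 CPM to 20.1, 22.1 and 20.3 CPM (-1.10, SE 0.07, adjusted p = 3.64e-24). In both genes the lowest DMSO library was above the highest mebendazole library. IFITM3, of similar function, fell 1.56-fold, and IFITM1, with 149 against 88 reads, was called at -0.52 (adjusted p = 0.0203, edgeR). Without pair 2 IFITM1 lay at -0.17 (adjusted p = 0.539), and by DESeq2 its adjusted p was 0.232. IFITM1, IFITM2 and IFITM3 resemble each other in sequence, so their single values are uncertain where reads were split between copies.

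Guanylate-binding proteins, large GTPases that coat pathogen vacuoles and are classical targets of interferon gamma, also went both ways. GBP5 rose from 7.43, 7.39 and 8.52 CPM to 31.9, 33.4 and 38.4 CPM (log2 fold change 2.15, SE 0.08, adjusted p = 5.1e-34, edgeR), and GBP2 from 13.8, 14.6 and 15.0 CPM to 29.2, 32.0 and 32.2 CPM (1.10, SE 0.07, adjusted p = 2.03e-21). All mebendazole libraries were above all DMSO libraries in both. GBP4 fell from 161 to 66 reads (-1.04, SE 0.22). GBP1, often among the strongest targets of interferon gamma, gave 6 reads against 2, so its mebendazole level was 0.393 times that of DMSO (95% interval from counting error, 0.0388 to 2.20), and a difference was not detectable at this depth. Members of this family resemble each other, so reads may be shared between them.

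The ADP-ribosyltransferases PARP9 and PARP14 were lower, and DTX3L, the ubiquitin ligase that forms a complex with PARP9, was not called. PARP14 fell from 37.4, 43.0 and 38.4 CPM to 27.1, 23.8 and 23.7 CPM (log2 fold change -0.67, SE 0.07, adjusted p = 3.58e-14, edgeR), and PARP9 from 13.9, 13.4 and 14.1 CPM to 8.43, 8.21 and 9.13 CPM (-0.68, SE 0.10, adjusted p = 1.53e-08). DTX3L lay at 46.4, 44.3 and 46.6 CPM in DMSO and at 44.2, 44.8 and 45.2 CPM with mebendazole, overlapping (-0.03, SE 0.06, adjusted p = 0.581), but was called lower with library totals (-0.28). By their RefSeq starts PARP9 and DTX3L begin close together on opposite strands, and the library kit does not mark strand, so reads there may not be told apart.

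The 5 genes for HIN200, SP110 and TRIM proteins were all called lower, each by more than 2-fold (14.8% of all genes), and 1 of them, TRIM22, entered the test only through its DMSO level. MNDA and IFI16 belong to the HIN200 family of DNA-binding proteins, and IFI16 is a sensor of nuclear DNA. MNDA lay at 121, 134 and 131 CPM in DMSO and at 2.98, 2.68 and 2.52 CPM with mebendazole (log2 fold change -5.55, SE 0.08, adjusted p = 3.24e-58, edgeR). IFI16 fell from 43.2, 45.4 and 46.8 CPM to 12.5, 9.51 and 11.8 CPM (-1.99, SE 0.08, adjusted p = 3.08e-34). Both genes were separated between the groups by far more than the spread within them. TRIM21, a cytosolic antibody receptor and ubiquitin ligase, fell from 60.1, 59.8 and 59.6 CPM to 24.7, 25.5 and 27.0 CPM (-1.22, SE 0.06, adjusted p = 1.12e-28, edgeR). SP110, a component of nuclear bodies, fell from 15.7, 15.1 and 15.8 CPM to 6.38, 5.98 and 4.41 CPM (-1.47, SE 0.11, adjusted p = 8.85e-19), and TRIM22, an antiviral ubiquitin ligase, from 104 to 33 reads (-1.40, SE 0.29). Markers of monocytes moved beside these genes, with CD14, CD33 and FCGR1A lower at log2 fold changes of -1.06, -1.76 and -1.08 and SPI1 and PTPRC higher at 0.98 and 1.00, and their part in the falls was not tested. Fewer cells that express a gene and less RNA of it per cell cannot be told apart in bulk RNA.

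Of the other 9 genes 8 were tested, with 5 called lower and 2 higher, beside 41.7% and 40.6% of all genes. IFI35, a partner of NMI in innate signalling, fell from 24.2, 22.9 and 26.6 CPM to 4.82, 5.52 and 5.51 CPM (log2 fold change -2.22, SE 0.10, adjusted p = 3.45e-30, edgeR). XAF1, which counters the cell death inhibitor XIAP, fell from 35.0, 36.3 and 34.7 CPM to 12.7, 14.6 and 11.0 CPM (-1.47, SE 0.08, adjusted p = 5.62e-27). Neither gene's groups overlapped. The related antiviral genes SAMD9L and SAMD9 differed. SAMD9L fell from 17.5, 17.2 and 16.8 CPM to 7.09, 8.67 and 9.36 CPM (-1.04, SE 0.10, adjusted p = 1.23e-14, edgeR), whereas SAMD9 was called higher at 0.25 (SE 0.07, adjusted p = 9.15e-04) but lay at 0.00 (adjusted p = 0.988) with library totals. IFI6, a membrane protein of mitochondria and the endoplasmic reticulum, was 36.4, 33.1 and 37.3 CPM in DMSO and 46.6, 41.8 and 49.3 CPM with mebendazole (0.37, SE 0.06, adjusted p = 5.75e-08).

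IFI44L, which entered the test only through its DMSO level, fell from 82 to 28 reads (log2 fold change -1.29, SE 0.31). IFI44, with 107 against 63 reads and overlapping groups, was called at -0.52 (adjusted p = 0.0454, edgeR), but not by DESeq2 (adjusted p = 0.290), nor without pair 2 (-0.26, adjusted p = 0.410) or pair 3 (-0.51, adjusted p = 0.135). LGALS3BP, a secreted glycoprotein that binds galectins, was not called (0.14, adjusted p = 0.375). IFI27, one of the most inducible genes in interferon responses of blood, gave 16 reads against 35, so its level was 2.58 times that of DMSO (95% interval 1.39 to 4.99, from counting error only), but its libraries overlapped, at 3, 4 and 9 reads in DMSO and 13, 16 and 6 with mebendazole. With no filter on low counts IFI27 was tested and called higher (log2 fold change 1.32, SE 0.51, adjusted p = 0.0157, edgeR).

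The ligands of the pathway were barely detected. Of 21 interferon genes in the table, 18, among them IFNG and all listed type III interferons, had no read in any library, and 0 were tested. IFNB1 and IFNW1 had 1 read each in DMSO and 0 with mebendazole, and IFNA21 had 1 and 1. A count of 0 over the 3 libraries of a group allows up to 3 reads, 0.0639 CPM in DMSO and 0.0753 CPM with mebendazole, so lower levels were not detectable at this depth.

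Of 5 receptor genes tested 3 were called higher, beside 40.6% of all genes, and the other 2 were not called. IFNGR1, the binding subunit for interferon gamma, rose from 114, 112 and 114 CPM to 292, 275 and 283 CPM (log2 fold change 1.32, SE 0.04, adjusted p = 3.2e-42, edgeR), and IFNGR2, its partner, from 112, 101 and 111 CPM to 195, 190 and 185 CPM (0.81, SE 0.04, adjusted p = 1.24e-28). The mebendazole libraries of both genes lay well above those of DMSO. The type I receptor genes moved little. IFNAR1 lay at 75.8, 78.8 and 71.9 CPM in DMSO and at 94.3, 85.1 and 94.5 CPM with mebendazole, a log2 fold change of 0.28 (adjusted p = 4.5e-07, edgeR) that was 0.03 (adjusted p = 0.550) with library totals. IFNAR2 lay at 76.9 ± 1.10 and 77.0 ± 8.27 CPM (adjusted p = 0.972, edgeR, n = 3) and IL10RB, a subunit of the type III receptor, at 156 ± 3.34 and 153 ± 5.87 CPM (adjusted p = 0.528), and both were called lower with library totals (log2 fold changes of -0.25 and -0.27). IFNLR1, the other type III subunit, had 0 reads in DMSO and 5 with mebendazole and was not tested.

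The counts of calls in the next 3 lists stand beside 40.6% of all genes called higher and 41.7% called lower, with 82.3% called in either direction. Among the kinases and transcription factors 9 of 14 were called higher and 3 lower. STAT2 rose from 75.6 ± 0.966 to 127 ± 4.24 CPM and IRF9, its partner in type I interferon signalling, from 24.8 ± 1.14 to 34.8 ± 1.27 CPM (mean ± SD, n = 3). IRF8 and IRF5, factors of myeloid cells, fell 3.53-fold and 3.01-fold and IRF4 rose 33.8-fold. IRF4 had 33 reads in DMSO against 960 with mebendazole and entered the test only through the mebendazole libraries. Its fold change therefore rests on a DMSO level near the filter on low counts. Genes that sense nucleic acids upstream of interferon were called higher in 5 of 13 and lower in 7. DHX58, which encodes the RIG-I-like receptor LGP2 and is named here after its value was seen, fell from 279 to 68 reads (log2 fold change -1.79, SE 0.19, adjusted p = 1.19e-13, edgeR). TMEM173, which encodes the adaptor STING, fell from 212, 196 and 206 CPM to 27.6, 27.0 and 29.2 CPM (log2 fold change -2.87, SE 0.05, adjusted p = 7.89e-55, edgeR). SAMHD1, which depletes nucleotides, fell by 0.89 on the log2 scale, and TRIM25, a ligase of RIG-I signalling, and TRAF3, an adaptor, rose by 0.94 and 0.91. Of 11 tested negative regulators 7 were called higher and 3 lower, and 6 were called higher by DESeq2, which did not call PIAS1 (adjusted p = 0.0497 by edgeR and 0.158 by DESeq2). SOCS3, an inhibitor of JAK kinases, rose 49.0-fold to 186 ± 7.93 CPM and the phosphatase gene PTPN11 1.45-fold, and NLRC5 and NLRX1 fell 3.08-fold and 2.46-fold. SOCS1, the main inhibitor in the interferon gamma pathway, had 30 and 25 reads and was not tested.

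**Figure D4:**
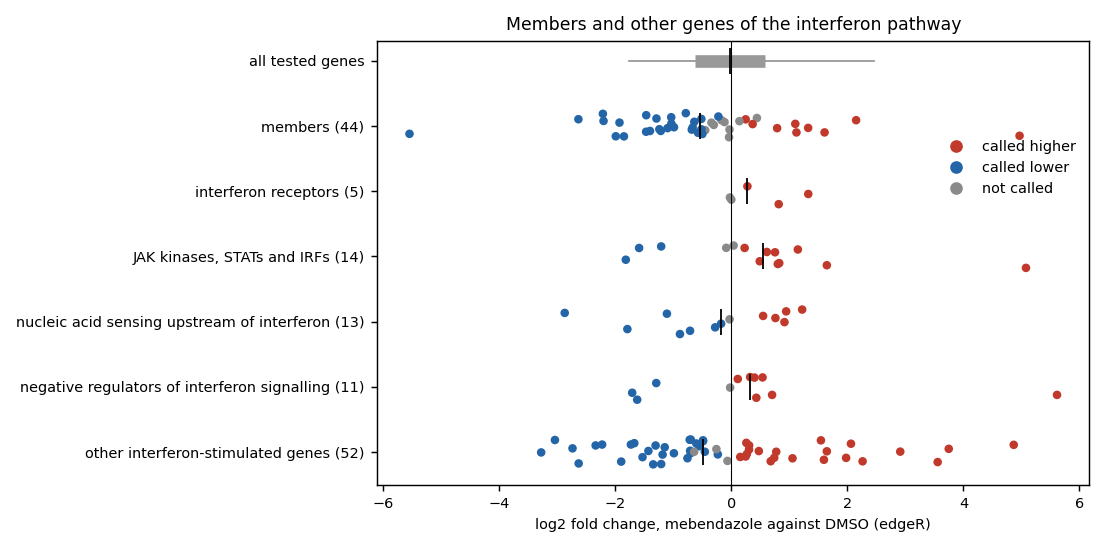
Points are log2 fold changes (mebendazole against DMSO, edgeR) of tested genes in each list, with the number tested in brackets and a black tick at the median, and the grey bar spans the 25th to 75th and the thin line the 5th to 95th percentile of all tested genes. The interferon-stimulated genes (members) and the other interferon-stimulated genes have medians below 0 and hold genes far from 0 on both sides.

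A further list of interferon-stimulated genes, outside the 46, had 52 tested. Of these, 21 were called higher and 28 lower, beside 40.6% and 41.7% of all genes, 11 and 16 of them at least 2-fold, with a median log2 fold change of -0.49. The 4 with the smallest p were IFI30, a lysosomal thiol reductase, which rose from 65.9, 60.9 and 66.3 CPM to 496, 467 and 490 CPM, DDX60L, HELZ2, a helicase that rose 3.94-fold, and PSMB8, an immunoproteasome subunit, which fell from 107, 101 and 115 CPM to 17.3, 17.0 and 17.7 CPM. UBE2L6, the enzyme that hands ISG15 to its ligases, named here after its value was seen, fell 3.33-fold beside HERC5 and USP18. The chemokine genes CXCL9, CXCL10 and CXCL11, also named after their values were seen, rose from 5, 19 and 4 reads in DMSO to 55, 223 and 110 reads with mebendazole. These chemokine genes entered the test only through the mebendazole libraries, in which they were high.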

How the data were processed

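The 6 libraries were made with the TruSeq RNA v2 protocol, per the labels' protocols, and the authors deposited unnormalized counts of reads for each gene symbol and library. The tools STAR, bedtools, HTSeq and DESeq2 and the build hg19 come from the submitters' processing notes, which give no version here. The sources used here do not give the annotation or the strand setting. In R 4.3.3 with edgeR 4.0.16, filterByExpr left 13591 genes with 99.9% of the reads, libraries were scaled by TMM, and glmQLFTest (two-sided) compared mebendazole with DMSO with the pair as a term, because the labels give each sample a pair number. A call is an adjusted p under 0.05 (Benjamini-Hochberg, all genes tested).

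Levels are CPM with TMM factors, so they are relative values and their sum over all genes differs between libraries. The SE of a log2 fold change is its size divided by the square root of F, and it rests largely on a spread pooled over genes (prior degrees of freedom 61, residual 2). Within pairs 1 to 3, deviations from the group means had correlations of -0.001, 0.06 and 0.02, and the pairing rests on the labels alone. Replicates had Spearman correlations of at least 0.997, and none agreed within sampling noise (chi-square per degree of freedom at least 1.43). The fit was tested on simulated data.

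The genes and lists were chosen with earlier results of these data known. Values per library are given for genes called and changed at least 2-fold with a mean CPM of 10 or more, the 3 with the highest mean CPM, and the 2 of each role group with the smallest p. Of each pathway list the 4 genes with the smallest p, and all detected ligands and receptors, are given, except 1 result that is not reported here, and others are named as examples. Transcript lengths are those of the longest best APPRIS transcript in GENCODE 29, and promoters are from RefSeq, both on GRCh38 and matched by symbol only. Alternatives were library totals, RLE factors, DESeq2 1.42.0, other filters, each pair left out and no pair term.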

Additional observations from a re-analysis of the deposited data

How the results depend on the processing

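Of the 44 tested interferon-stimulated genes, 33 had the same sign and call under all alternatives in which they were tested, as had 72 of 93 other pathway genes. With library totals, which shift the median gene by -0.24, the share of calls that were higher fell from 49.3% to 36.4% over all genes and from 25.7% to 20.0% in the set, and the median of the set was -0.79. Calls lower then numbered 2 receptor genes, 5 kinases and transcription factors and 5 negative regulators, in place of 0, 3 and 3, and JAK2 (-0.21), TYK2 (-0.017), PIAS1 (-0.13) and RNF213 (-0.092) turned from above 0 to below it. A minimum mean CPM of 10 left 27 of the set to test, and of these 17 were called lower, 10 of them at least 2-fold, 8 were called higher, and the median was -0.67. Without 1 pair, 9 to 11 of the set were called higher and 24 to 27 lower, 6 to 7 and 14 to 16 at least 2-fold, with medians of -0.66 (without pair 1) to -0.53. With no replicate block, 9 were called higher and 26 lower, with a median of -0.55, and the pair term changed no call of the set, while PIAS1 lost its call (adjusted p = 0.0561). DESeq2 called 9 higher and 23 lower. With the ISRE core lengthened by another A, 21 of 37 promoters held it, against 3.07% of all. Genes with fewer than about 100 reads per group, such as the IFIT genes, limit what small changes could be seen.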
